A study of Mus musculus with 2 samples.

Results

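The 10 genes described here mark the progenitor classes of adult adipose tissue: 7 of interstitial progenitors (Dpp4, Pi16, Cd55, Ly6a, Ly6c1, Anxa3 and Efhd1), 1 of committed preadipocytes (Icam1) and 2 of regulatory progenitors (F3 and Abcg1). They were taken as a list of names, 10 of the 32285 genes listed in each library, and followed through cultured white (WAT) and brown (BAT) progenitors of newborn mice for their level, their absence and their detection in the same cell. F3 and Anxa3 were found in over 90% of precursor cells of both depots, and Ly6a in 58.8% of WAT and 35.0% of BAT precursor cells. Dpp4 and Pi16, the genes most used to name interstitial progenitors, were close to absent, in 0.60% and 2.55% of WAT and 0.55% and 1.95% of BAT precursor cells.

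The study grew the stromal vascular cells of subcutaneous WAT and interscapular BAT and sequenced single cells of each culture with the 3′ chemistry of 10x Genomics. By the labels, both cultures came from C57/BL6J neonates of both sexes at postnatal day 0, with 4 pups pooled, and grew to confluency within 4 days before trypsin-EDTA was used to lift them. The text of the study gives the age as a day more and writes the strain in other forms. Its Results give the time in culture as a day more, while its methods also give confluency in 4 days. WAT was digested with collagenase for 35 min and BAT for 50 min. There was 1 library per depot and no other treatment, so depot, pool, digestion, culture and library cannot be told apart, and no value below has a replicate, a p-value or a standard error.

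In adult WAT, Dpp4+ and Pi16+ interstitial progenitors lie in the connective tissue around the depot and can give rise to Icam1+ preadipocytes, which are closer to becoming adipocytes. A further class, marked by F3 (the protein CD142) and Abcg1, was described as holding back adipogenesis of its neighbours and is called regulatory. The study's own clusters are CAPs (committed adipogenic precursors), FAPLs (fibro-adipogenic progenitor-like cells) and the remaining precursors (wAPC 1 to 4 in WAT, bAPC 1 to 5 in BAT), with a small cluster of differentiating wFAPLs. Ly6c1 was among the genes the study used to tell wFAPLs, and every cluster was drawn from these same counts, so levels across clusters are descriptions and test nothing.

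Depth was alike in both libraries. The WAT library held 5261 cells with 506 to 107653 unique molecular identifiers (UMIs, each counting 1 captured transcript) and the BAT library 7009 cells with 504 to 120708. Clusters were those of the study's source data, of which only a shortened copy was at hand, so 2033 WAT and 2056 BAT cells had a name and the names of the others were not used here. Labelled cells are therefore a part of the study's cells, and names were also carried over from them to all cells that passed the study's filter (carried-over names). Of the labelled cells, 20 were glial and 14 myeloid in WAT, and 22 were glial, 27 myeloid and 8 myoblasts in BAT. The others were precursors, equal in number in both depots because both tables were shortened to the same number of rows, with medians of 27204 UMIs per cell in WAT and 26900 in BAT and 57368210 and 57780702 UMIs in all. Pdgfra, a receptor of mesenchymal progenitors, was found in 85.6% of WAT and 79.5% of BAT precursor cells, against 10.0% and 0% of glial cells. It was in only 2 of the 15 differentiating wFAPLs. Dlk1, Pdgfrb and Dcn were found in 87.5% to 96.7% of precursor cells and in 5% to 40.9% of glial cells. Col1a1, the last of the 5 precursor markers read, was in 100% of both, at 1328 and 1803 CPM in WAT and BAT glial cells against 4961 and 4650 CPM in precursors. The 2 libraries shared 9 cell barcodes. A level here is a gene's summed UMIs per 1000000 UMIs of the same cells (CPM) with an exact 95% Poisson interval beside it. Since only the 3′ end of a transcript is counted, levels of different genes were compared without dividing by length. Shares of cells carry exact 95% Clopper-Pearson intervals, and all intervals cover counting error only.

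For 3 members the sequence before the start of transcription is shown. Cd55 met Ly6c1, and also Icam1, in the same BAT cells more often than depth and cluster gave, as described with the pairs of markers. Ly6c1 with Icam1 was not among those pairs, and neither pair with Cd55 kept an interval above 1 after thinning. Each run is the 250 bases upstream of the RefSeq start in GRCm38.p6, read 5′ to 3′ on the strand of the gene. The window of Ly6c1 lies at chr15:75048838-75049087 on the minus strand, Cd55 at chr1:130462745-130462994 on the minus strand and Icam1 at chr9:21015690-21015939 on the plus strand. Capitals mark a match to TTCNNNGAA, the site read by STAT factors, or to TATAAA, the TATA box, searched on both strands.
Ly6c1: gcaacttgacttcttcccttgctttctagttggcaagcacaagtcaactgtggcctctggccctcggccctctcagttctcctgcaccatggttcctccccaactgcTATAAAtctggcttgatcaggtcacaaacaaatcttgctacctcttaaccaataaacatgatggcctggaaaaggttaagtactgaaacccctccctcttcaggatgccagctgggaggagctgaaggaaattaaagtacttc
Cd55: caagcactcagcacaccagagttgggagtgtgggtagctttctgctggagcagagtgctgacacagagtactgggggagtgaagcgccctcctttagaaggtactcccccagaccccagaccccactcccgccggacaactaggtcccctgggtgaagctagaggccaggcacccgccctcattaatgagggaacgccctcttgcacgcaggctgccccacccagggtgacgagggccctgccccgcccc
Icam1: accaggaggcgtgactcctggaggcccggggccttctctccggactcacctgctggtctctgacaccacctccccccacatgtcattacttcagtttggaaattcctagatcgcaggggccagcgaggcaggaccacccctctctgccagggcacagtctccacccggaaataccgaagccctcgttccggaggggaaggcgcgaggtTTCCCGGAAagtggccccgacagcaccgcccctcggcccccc
The match of Ly6c1 to TATAAA lay 143 to 138 bases before the start, and that of Icam1 to TTCNNNGAA lay 42 to 34 bases before it. Over the 32526 windows of the same length, 12.3% held TATAAA, 7.04% held TTCNNNGAA and 7.28% held GGGRNNYYCC, a consensus of the NF-kappaB factors. In these letters R is A or G and Y is C or T. None of the 3 windows held GGGRNNYYCC, but the Icam1 window holds tggaaattcc, which departs from it at the first base only. Sites that depart from the consensus were not searched, so no window was shown to lack a site of these factors. The Cd55 window held none of these motifs. G and C made up 48.4% of the bases before Ly6c1, 64.0% before Cd55 and 65.2% before Icam1. A match describes these letters and shows no binding. Of the 10 members, 7 had an entry in the RefSeq promoter table, and Ly6a, Anxa3 and Abcg1 had none.

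Across the members, levels spanned more than 3 orders of magnitude on the CPM scale, from Dpp4 at 0.23 CPM in WAT and 0.19 CPM in BAT precursors to F3 at 595 and 562 CPM. Ranked among all genes with a UMI in the precursor cells, F3 stood at place 201 of 21950 in WAT and 214 of 21932 in BAT, and Anxa3 at 954 and 896. Ly6a stood at 2005 in WAT and 4598 in BAT. The other 7 members ranked between 8888 and 16026, and only Ly6a, Anxa3 and F3 reached 10 CPM in either depot. At that minimum, 1 of these 3 members, Ly6a, differed at least 2-fold between the depots, against 1.83% of the 9041 genes that reached it. It was higher in WAT, as were 1.07% of these genes at 2-fold, and no member was 2-fold lower at that level, against 0.752%. The counting intervals of the WAT over BAT ratio lay above 0 on the log2 scale for 5 members, below 0 for 2 and held 0 for 3. The same shares were not taken over all genes, so these counts cannot be read as a trait of the members. At a high level a small ratio is enough, as for F3 at 0.08 (0.06 to 0.11).

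**Figure D1:**
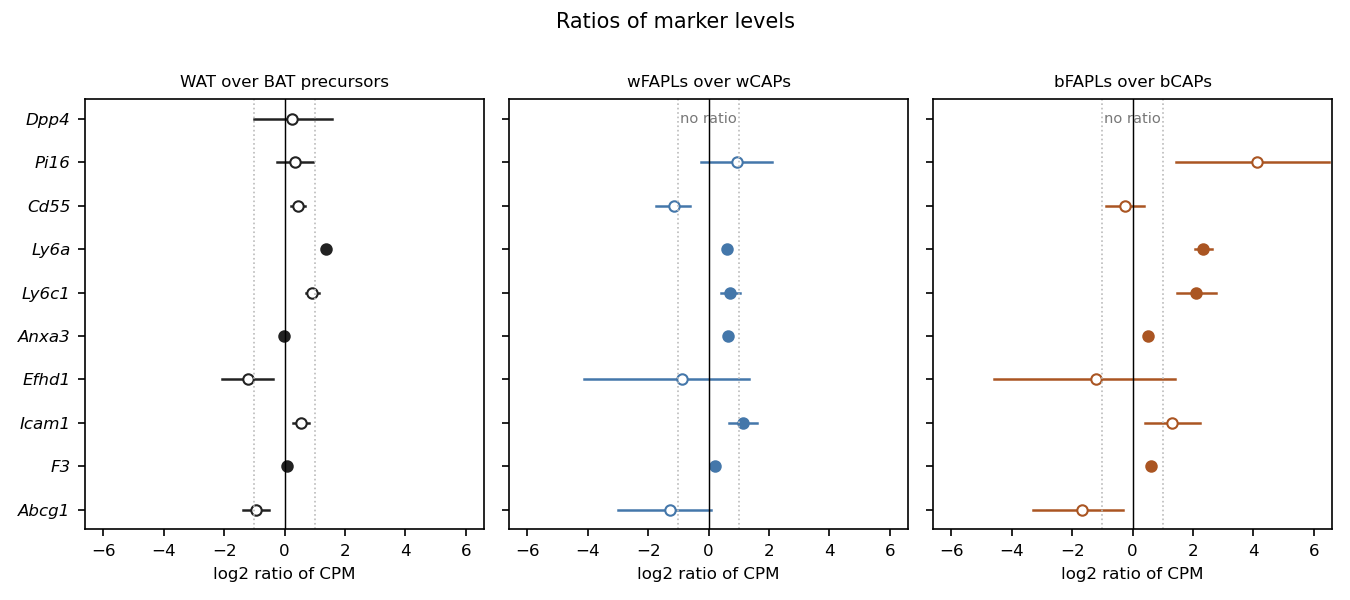
Log2 ratio of the level (CPM) of each marker for WAT over BAT precursors, wFAPLs over wCAPs and bFAPLs over bCAPs. Points are ratios of summed UMIs, bars are 95% counting intervals (that of Pi16 in the right panel runs to 9.51, past the axis), filled points are genes at 10 CPM or more in either group, and dotted lines stand at 2-fold; Ly6a lies right of 0 in all 3 panels and Dpp4 has no ratio within depots.

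Dpp4 (chromosome 2, 62330073 to 62412231, GRCm38 as for all genes here) encodes a membrane peptidase that trims circulating peptide hormones. It gave 13 UMIs in 12 WAT precursor cells (0.60%, 0.31 to 1.05%) and 11 UMIs in 11 BAT precursor cells (0.55%, 0.28 to 0.98%). No cell held more than 2 of them. The log2 ratio of WAT over BAT was 0.25 (-1.02 to 1.55), so no difference between the depots was detectable at this depth. Among labelled cells, Dpp4 had no UMI in 256 wFAPLs or 279 bFAPLs, which allows a level of up to 0.418 and 0.398 CPM, nor in wAPC 4, bAPC 3 and bCAPs. With carried-over names it had 3 UMIs in 516 wFAPLs (0.21 CPM, 0.04 to 0.61) and 3 in 788 bFAPLs (0.14 CPM, 0.03 to 0.42), 1 in bAPC 3 and 2 in bCAPs, and was at 0 only in wAPC 4. The labelled BAT cluster with the most UMIs was bAPC 2, with 6 in 415 cells at 0.50 CPM (0.18 to 1.08), but with carried-over names it was bAPC 1, with 28 UMIs at 0.52 CPM (0.34 to 0.75) against 0.11 CPM when labelled. In WAT, wAPC 2 went from 0.39 to 0.91 CPM (0.52 to 1.48). The order of the clusters by Dpp4 changed with the cells that were named.

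Over all precursors with carried-over names, Dpp4 was found in 44 of 4331 WAT and 53 of 5962 BAT precursor cells, at 0.39 CPM (0.29 to 0.52) and 0.34 CPM (0.26 to 0.44). It had no UMI in 76 glial and myeloid cells of WAT, which allows a share of cells of up to 3.95%, or in 175 glial, myeloid and myoblast cells of BAT, which allows 1.71%. These limits lie above the shares in precursors, so a background of free RNA at the level of the precursor signal could not be told from none. Cells removed by the filter gave 8 UMIs in 854 WAT cells and 8 in 872 BAT cells, at 0.41 and 0.25 CPM, with intervals that held the level of the precursors.

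Pi16 (chromosome 17, 29317680 to 29330593), a peptidase inhibitor and the other leading name of interstitial progenitors, gave 54 UMIs in 51 WAT cells (2.55%, 1.91 to 3.34%) and 43 UMIs in 39 BAT cells (1.95%, 1.39 to 2.66%). Its log2 ratio of WAT over BAT was 0.34 (-0.27 to 0.95). In labelled FAPLs it stood at 2.12 CPM (1.21 to 3.45) in BAT, with 16 UMIs in 12 cells, against 1 UMI in 296 bCAPs, and the log2 ratio was 4.12 (1.44 to 9.51). With carried-over names the counts were 37 and 10 and the ratio was 2.02 (0.98 to 3.19), and the labelled value rests on a single UMI of bCAPs. In WAT the levels were 1.67 CPM (0.86 to 2.92) in wFAPLs, from 12 UMIs, and 0.88 CPM (0.51 to 1.40) in wCAPs, from 17 UMIs, at a log2 ratio of 0.93 (-0.27 to 2.08). With carried-over names it was 1.09 (0.33 to 1.84), an interval above 0. The highest level of Pi16, 3.54 CPM (1.30 to 7.70) in wAPC 4, came from 6 UMIs in 62 cells. Across the 14 clusters ordered by level, the ratio between neighbours had an interval that held 0 for all 13 pairs, for Pi16 and for Dpp4.

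Cd55 (chromosome 1, 130439027 to 130462744) encodes decay-accelerating factor, which shields cells from complement. It stood at 5.80 CPM (5.20 to 6.46) in WAT and 4.26 CPM (3.74 to 4.82) in BAT precursors, in 11.6% and 9.85% of cells, at a log2 ratio of 0.45 (0.21 to 0.69). None of 20 WAT and 22 BAT glial cells held it, at medians of 22607 and 17174.5 UMIs per cell. Although a marker of the interstitial class, Cd55 was highest in the clusters named for commitment: in wCAPs with 9.90 CPM (8.55 to 11.4) and in bCAPs with 6.46 CPM (4.84 to 8.45). The wFAPLs had 4.46 CPM (3.05 to 6.30), a log2 ratio to wCAPs of -1.15 (-1.74 to -0.60). With carried-over names this ratio was smaller, at -0.67 (-1.04 to -0.31). In BAT the ratio of FAPLs over CAPs was -0.25 (-0.87 to 0.37), and -0.53 (-0.90 to -0.17), below 0, with carried-over names, and labelled bFAPLs stood at 5.44 CPM (3.90 to 7.38). The lowest level among clusters with at least 1 UMI was 0.46 CPM in bAPC 3, from 2 UMIs in 171 cells, and it was 1.33 CPM with carried-over names.

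Ly6a encodes Sca-1, the surface protein by which mouse adipose progenitors are commonly sorted. WAT precursors held 5173 UMIs of it, 90.2 CPM (87.7 to 92.7), and BAT precursors 2019 UMIs, 34.9 CPM (33.4 to 36.5). The log2 ratio was 1.37 (1.29 to 1.44), the largest of the 3 members past 10 CPM. Every WAT cluster other than wAPC 4 and the 15 differentiating wFAPLs lay above 70 CPM, and every BAT cluster other than bFAPLs lay below 36 CPM. The order within WAT ran from 143 CPM (134 to 152) in wFAPLs over 94.6 CPM (90.4 to 99.1) in wCAPs, 86.7 CPM in wAPC 2, 79.3 CPM in wAPC 1 and 70.1 CPM in wAPC 3 to 24.7 CPM (17.8 to 33.5) in wAPC 4 and 10.5 CPM (3.40 to 24.5) in differentiating wFAPLs. In BAT, bFAPLs had 81.7 CPM (75.4 to 88.4), close to the level of wAPC 1, while the other 6 clusters ran from 16.1 CPM (13.5 to 19.1) in bCAPs to 35.7 CPM (32.4 to 39.3) in bAPC 2. The contrast of FAPLs with CAPs was wider in BAT, at a log2 ratio of 2.34 (2.07 to 2.63), than in WAT, at 0.59 (0.48 to 0.70). The 2 intervals did not overlap, though the difference itself was not tested. With carried-over names the ratios were 1.82 (1.67 to 1.96) in BAT and 0.53 (0.46 to 0.61) in WAT. As means of per-cell values they were 2.04 and 0.60. Both of these alternative values for BAT lay below the interval from labelled cells.

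The share of cells with Ly6a was well under what its level alone would give. At the same total and with UMIs spread over cells by depth, 90.2% of WAT and 61.8% of BAT precursor cells would have held at least 1 UMI, against the 58.8% (56.6 to 61.0%) and 35.0% (32.9 to 37.1%) found. This gap of 31.4 percentage points in WAT ranked 87 of the 8838 genes at 10 CPM or more, whose median gap was 1.90, and the gap of 26.8 in BAT ranked 106 of 8790. The 10% of cells with the most Ly6a held 52.3% of its UMIs in WAT and 67.2% in BAT, and single cells reached 55 and 64 UMIs. Thinned to 10000 UMIs per cell, 38.9% of WAT and 19.1% of BAT cells held it. It was found in 0 of 14 myeloid cells of WAT and 2 of 27 of BAT, and in 1 of 20 glial cells of WAT and 5 of 22 of BAT. This uneven spread was looked at after the levels were known.

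**Figure D2:**
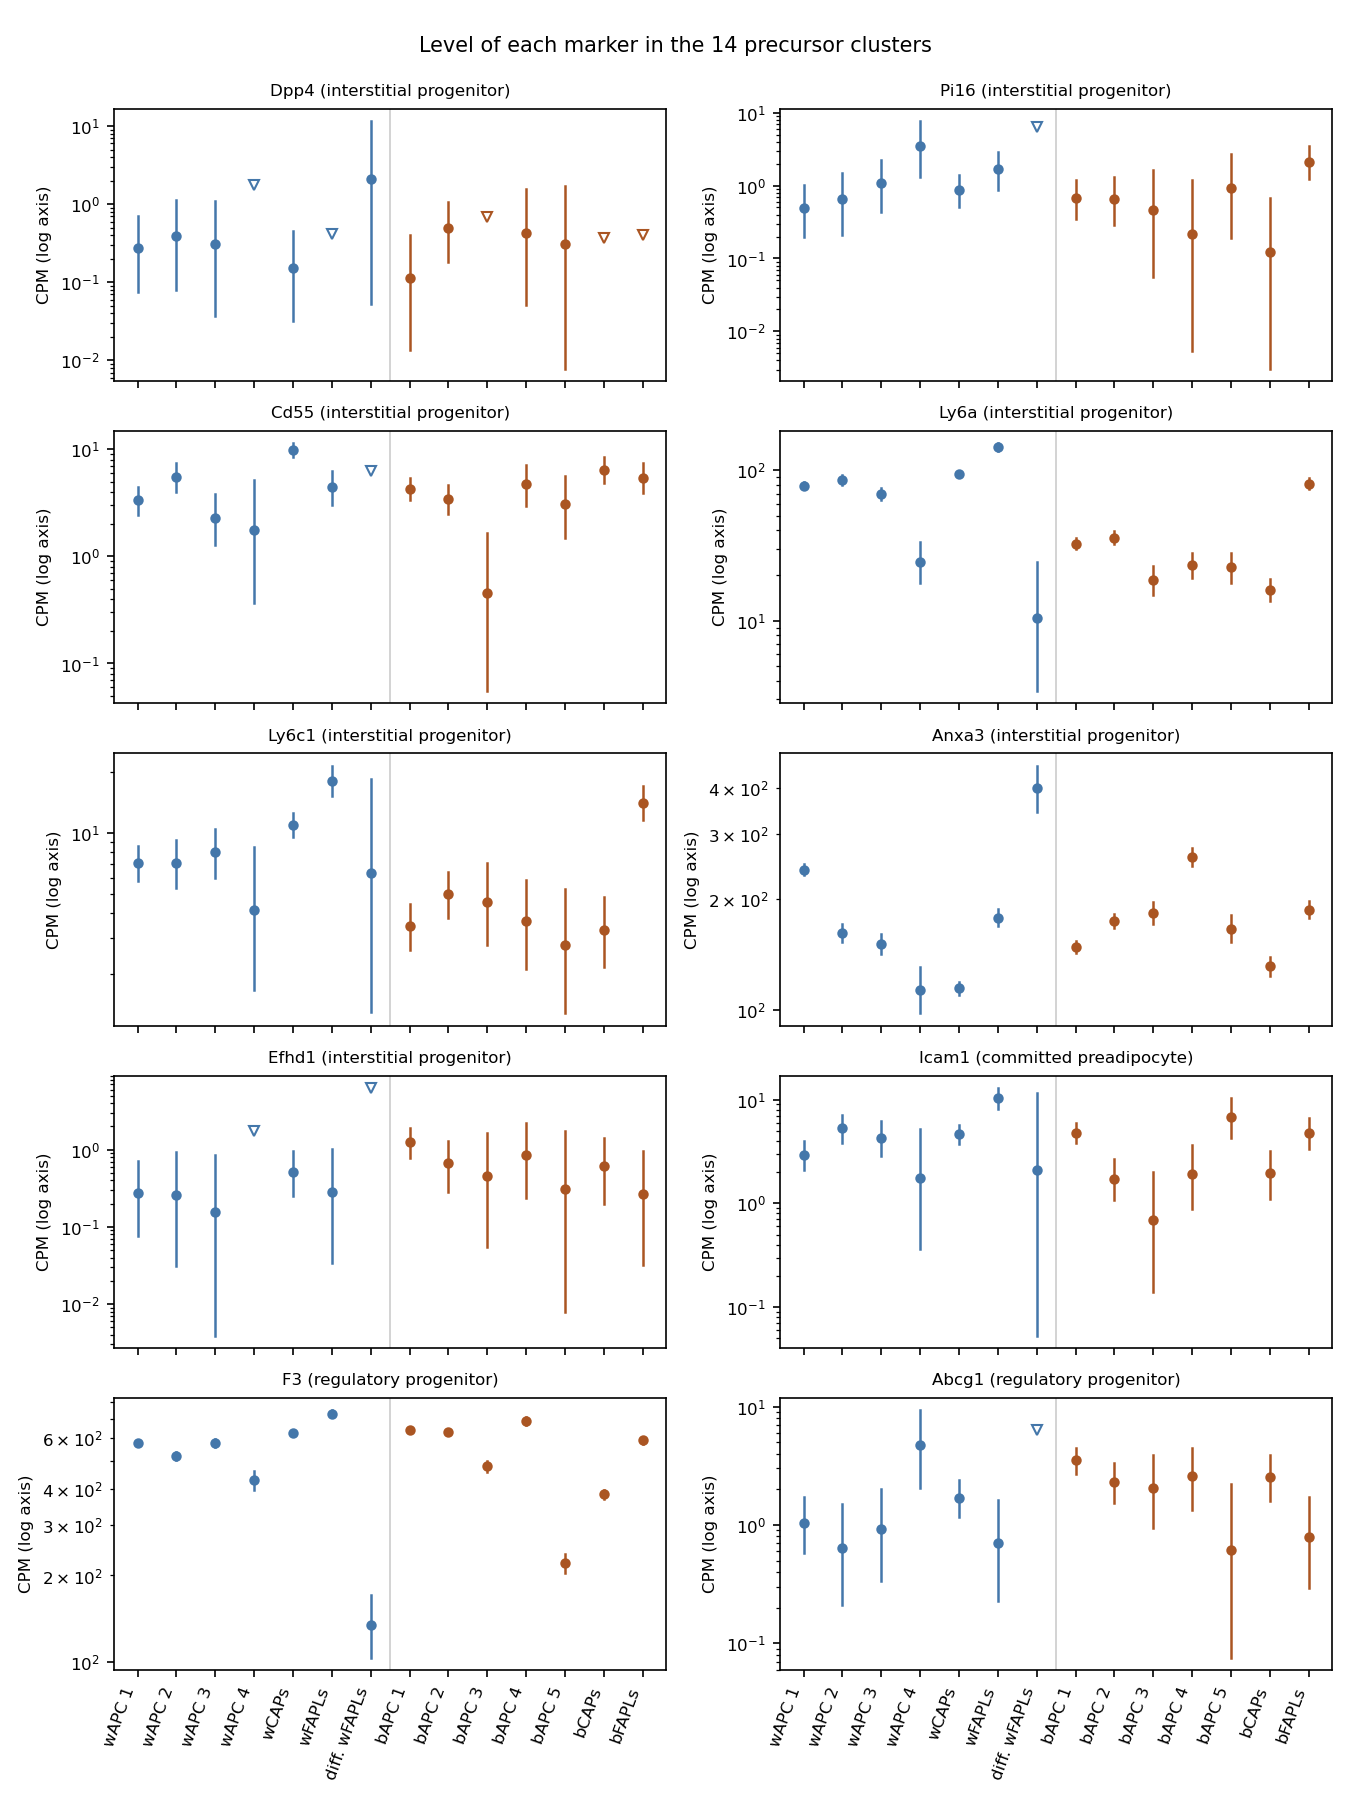
Level (CPM, log axis) of each marker in the 7 WAT clusters (blue) and 7 BAT clusters (orange). Points are levels from summed UMIs with 95% Poisson intervals and open triangles are the limit of 3 counts in clusters without a UMI; Ly6a and Ly6c1 peak in wFAPLs and bFAPLs, while F3 is above 100 CPM in all 14 clusters.

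Ly6c1 encodes Ly6C, a surface protein best known on monocytes and endothelial cells. Like Ly6a it was highest in FAPLs, with 18.1 CPM (15.2 to 21.5) in wFAPLs and 14.1 CPM (11.5 to 17.0) in bFAPLs. The corresponding CAPs had 11.0 CPM (9.56 to 12.6) and 3.29 CPM (2.17 to 4.79). The log2 ratios of FAPLs over CAPs were 0.72 (0.40 to 1.04) in WAT and 2.10 (1.47 to 2.76) in BAT. With carried-over names they were 0.90 (0.69 to 1.11) and 1.56 (1.22 to 1.91). Over all precursors, WAT had 9.80 CPM (9.0 to 10.6) and BAT 5.19 CPM (4.62 to 5.81), a log2 ratio of 0.92 (0.71 to 1.12). Ly6c1 was found in 18.4% of WAT and 10.4% of BAT precursor cells, in none of 20 WAT glial or 27 BAT myeloid cells, and in 2 of 14 WAT myeloid and 5 of 22 BAT glial cells. Both Ly6 genes belong to a cluster of related genes on chromosome 15 (Ly6a at 74994877 to 74998031 and Ly6c1 at 75044018 to 75048830, minus strand). Of the windows of 50 bases in the last 600 bases of the Ly6c1 transcripts, 30.6% also occurred in Ly6a, Ly6c2 or Ly6i, and 7.24% of those of Ly6a occurred in another gene. The near-identical Ly6c2 had no UMI in precursor cells of either depot. How far shared bases moved reads between these genes was not tested.

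Endothelial cells also express Ly6c1 and Ly6a, so their markers were read in the same clusters. The 7 endothelial markers summed to 8.39 to 31.4 CPM over WAT clusters and 16.7 to 26.0 CPM over BAT clusters, with bFAPLs the highest in BAT, and 6 of the 7 had at least 1 UMI in wFAPLs and in bFAPLs. Cldn5, a tight junction protein that defines endothelium, had no UMI in wFAPLs or bFAPLs, while Cdh5 had 7.81 CPM in wFAPLs and 3.05 CPM in bFAPLs. Over all labelled precursors Cldn5 was held by 1 WAT cell and 0 BAT cells, so its absence does not set FAPLs apart. Cdh5 had 0.62 CPM in wCAPs and no UMI in bCAPs. Among wFAPLs, 0 of 67 cells with Ly6c1 and 3.17% of those without it held Pecam1, Cldn5 or Kdr. Among bFAPLs these were 4 of 55 cells (7.27%) and 1.79%. For Ly6a the shares were 2.47% with and 2.13% without in wFAPLs, and 2.99% and 2.76% in bFAPLs. Cdh5, left out of these shares, was held by 30 of 256 wFAPLs. It was in 16 of the 162 with Ly6a, 5 of the 67 with Ly6c1 and 7 of the 54 with Icam1. Of 279 bFAPLs 14 held Cdh5, and of those with Ly6a, Ly6c1 and Icam1, 6 of 134, 1 of 55 and 4 of 28. Myeloid markers, of which there were 6, summed to 37.7 CPM in wFAPLs, the most of any WAT cluster, and to 14.9 CPM in bFAPLs, against 12082 and 10705 CPM in the labelled myeloid cells. In wFAPLs this sum lay in few cells, with all 35 UMIs of Tyrobp in 1 of 256 cells, 16 of Cd68 in 3 and 143 of Lyz2 in 17. The 5 glial markers summed to 31.1 and 24.9 CPM in wFAPLs and bFAPLs, also the most in each depot, of which S100b alone gave 29.0 and 23.1 CPM, and Sox10 had no UMI in wFAPLs and 2 in bFAPLs. Mural markers also moved with FAPLs, and all 5 were higher there than in CAPs of both depots. Rgs5 had 28.3 CPM in wFAPLs against 0.62 CPM in wCAPs and 76.8 CPM in bFAPLs against 8.53 CPM in bCAPs, Myh11 had 102 against 6.14 CPM in WAT and 48.4 against 13 CPM in BAT, and Abcc9 had 60.2 against 10.3 CPM in WAT and 34.5 against 11.3 CPM in BAT. The part of these cell types in the levels of Ly6a, Ly6c1 or Icam1 in FAPLs was not tested.

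Anxa3 (chromosome 5, 96793339 to 96845966), a phospholipid-binding annexin, had close levels in both depots. It stood at 166 CPM (163 to 170) in WAT and 169 CPM (166 to 172) in BAT precursors, in 91.7% (90.4 to 92.9%) and 93.4% (92.2 to 94.4%) of cells, and the log2 ratio was -0.02 (-0.06 to 0.02). With carried-over names it was -0.05 (-0.08 to -0.03), an interval below 0 at a similar size. It was found in 4 of 20 WAT and 13 of 22 BAT glial cells. It was lowest in WAT in wAPC 4 at 113 CPM (97.7 to 130) and in wCAPs at 114 CPM (110 to 119), and in BAT in bCAPs at 131 CPM (123 to 139). FAPLs had 178 CPM (168 to 188) in WAT and 187 CPM (177 to 197) in BAT, at log2 ratios over CAPs of 0.64 and 0.51. Higher still were wAPC 1 at 240 CPM, bAPC 4 at 260 CPM and differentiating wFAPLs at 398 CPM (344 to 459), a cluster of 15 cells in which mural markers, such as smooth muscle actin, summed to 27365 CPM against 2388 CPM in wCAPs.

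Efhd1 (chromosome 1, 87264363 to 87310839), a calcium-binding protein of mitochondria, was the remaining interstitial marker and nearly absent. It gave 19 UMIs in WAT and 44 in BAT precursors, 0.33 CPM (0.20 to 0.52) and 0.76 CPM (0.55 to 1.02). The log2 ratio was -1.20 (-2.06 to -0.39), and with carried-over names it was -0.53 (-1.03 to -0.06), from 55 and 110 UMIs. Of the 44 UMIs of BAT, 22 were in bAPC 1, at 1.24 CPM (0.78 to 1.88). No labelled cluster of precursors passed that level, while with carried-over names bAPC 4 (0.97 CPM) stood above bAPC 1 (0.83 CPM).

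Icam1 (chromosome 9, 21015985 to 21028817), the marker of committed preadipocytes, encodes an adhesion molecule that binds leukocyte integrins. It stood at 4.86 CPM (4.31 to 5.47) in WAT and 3.32 CPM (2.87 to 3.83) in BAT precursors, in 10.2% (8.91 to 11.6%) and 6.55% (5.51 to 7.73%) of cells, at a log2 ratio of 0.55 (0.28 to 0.82). None of 20 WAT and 22 BAT glial cells held it. By cluster it went against its name, since FAPLs and not CAPs had more. The wFAPLs had 10.3 CPM (8.10 to 13), the highest of the 14 clusters, and 21.1% of them held Icam1, against 4.64 CPM (3.73 to 5.71) and 8.16% in wCAPs, a log2 ratio of 1.15 (0.69 to 1.61). In BAT, bFAPLs had 4.78 CPM (3.35 to 6.61) and bCAPs 1.95 CPM (1.11 to 3.17), a log2 ratio of 1.29 (0.41 to 2.24), but with carried-over names this fell to 0.45 (-0.03 to 0.93), an interval that held 0. The BAT clusters with most Icam1 were bAPC 5 at 6.81 CPM (4.27 to 10.3) and bAPC 1 at 4.81 CPM (3.84 to 5.95), and that with least was bAPC 3 at 0.68 CPM, from 3 UMIs, which was 2.09 CPM with carried-over names.

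F3 (chromosome 3, 121723537 to 121735048), or tissue factor, starts the clotting cascade and as CD142 is the surface marker of regulatory progenitors. It was found in 98.2% (97.6 to 98.8%) of WAT and 96.5% (95.6 to 97.3%) of BAT precursor cells, and still in 93.7% and 90.2% of them when thinned to 10000 UMIs. In glial cells it was found in 3 of 20 (15.0%) in WAT and 10 of 22 (45.5%) in BAT, at 6.33 and 33.1 CPM. Its levels, 595 CPM (589 to 602) in WAT and 562 CPM (556 to 568) in BAT, differed by a log2 ratio of 0.08 (0.06 to 0.11), which ran from 0.04 to 0.12 over the settings tried. It was lowest in differentiating wFAPLs, at 134 CPM (103 to 171) with 46.7% of 15 cells (84.7 CPM with carried-over names), and in bAPC 5, at 221 CPM (205 to 237) with 83.5% of cells. It was highest in wFAPLs at 728 CPM (709 to 748) and bAPC 4 at 687 CPM (663 to 711). FAPLs exceeded CAPs by a log2 ratio of 0.23 in WAT and 0.62 in BAT, with 622 CPM in wCAPs, 588 CPM in bFAPLs and 383 CPM in bCAPs.

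Abcg1 (chromosome 17, 31057675 to 31117988), which exports cholesterol from cells, is paired with F3 in the regulatory class but was rare. It gave 72 UMIs in WAT and 140 in BAT precursors, 1.26 CPM (0.98 to 1.58) and 2.42 CPM (2.04 to 2.86), with a log2 ratio of -0.95 (-1.38 to -0.53), and was found in 2.85% and 5.80% of cells. None of 20 WAT and 22 BAT glial cells held it. In contrast to F3, it was low in FAPLs, at 0.70 CPM in wFAPLs (5 UMIs) and 0.80 CPM in bFAPLs (6 UMIs), and reached 4.71 CPM (2.04 to 9.29) in wAPC 4 and 3.51 CPM (2.69 to 4.50) in bAPC 1. The log2 ratio of bFAPLs over bCAPs was -1.69 (-3.28 to -0.33), and in WAT it was -1.29 (-3.00 to 0.08). With carried-over names the ratio in WAT was -1.49 (-2.67 to -0.49), below 0, and the level in wAPC 4 was 8.16 CPM.

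Read as classes, the members split within FAPLs. In WAT, 5 of the 10 members reached 10 CPM in wFAPLs or wCAPs, and 1 of them, Icam1, was at least 2-fold higher in wFAPLs, where 2.25% of the 9199 genes at that level were and 3.85% differed in either direction. In BAT, 4 reached it and 2 of them, Ly6a and Ly6c1, were at least 2-fold higher in bFAPLs, where 1.86% of 9148 genes were and 3.87% differed in either direction. None was 2-fold lower in FAPLs at that level, against 1.60% and 2.01% of genes. With carried-over names Icam1 fell to 9.87 CPM in wFAPLs, just short of the minimum, at a log2 ratio of 1.18. Icam1 in WAT and Ly6c1 in BAT passed the minimum only through FAPLs, so a count of members past it had to include a difference for them. Wider lists of genes of the same adult classes were read beside the members. Of 19 further interstitial genes, 13 reached 10 CPM in WAT and 4 were at least 2-fold higher in wFAPLs: Il33 (1.84 on the log2 scale), Igfbp6 (1.7), Limch1 (1.33) and Mfap5 (1.30). Opcml was lower (-1.91), and the list's median log2 ratio was 0.69 against -0.01 for all genes tested. In BAT, 14 reached it and 5 were higher in bFAPLs, among them Igfbp6 (3.48), Ackr3 (3.04), Il33 (1.30) and Mfap5 (1.26), with a median of 0.59 against -0.04. Igfbp6, Mfap5, Fn1, Creb5, Timp2 and Cd9 of this list are genes that the study itself reports as raised in wFAPLs. Their direction in wFAPLs, and the list's medians as far as they rest on them, were thus known beforehand and test nothing.

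The committed list of 11 genes went the other way from Icam1. In WAT 9 reached 10 CPM and 3 were at least 2-fold lower in wFAPLs: Pparg, the master regulator of adipogenesis (-3.29), Lpl (-1.65) and Fabp4 (-1.21). In BAT 8 reached it and the same 3 genes were lower (Pparg -2.45, Fabp4 -1.72 and Lpl -1.09). None was 2-fold higher in FAPLs of either depot. Of all genes tested, 1.60% in WAT and 2.01% in BAT were at least 2-fold lower in FAPLs. The study named CAPs by their high Pparg and Fabp4, so the direction of these 2 genes followed from the naming and tests nothing. Of the 9 further regulatory genes, 7 reached 10 CPM in WAT and 4 were higher in wFAPLs, namely Meox2 (3.07), Fmo2 (1.63), Epha3 (1.58) and Gdf10 (1.23), and 6 reached it in BAT, where Meox2 (2.53), Gdf10 (2.52) and Epha3 (2.34) were higher. The study also gives Meox2 as a gene of FAPLs in both depots, so the direction of Meox2 tests nothing. Klf4 and Foxp2, which stand for 2 other adult classes, differed by less than 2-fold in WAT. In BAT Klf4 was higher in bFAPLs (1.22) and Foxp2 had a ratio of -0.98.

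**Figure D3:**
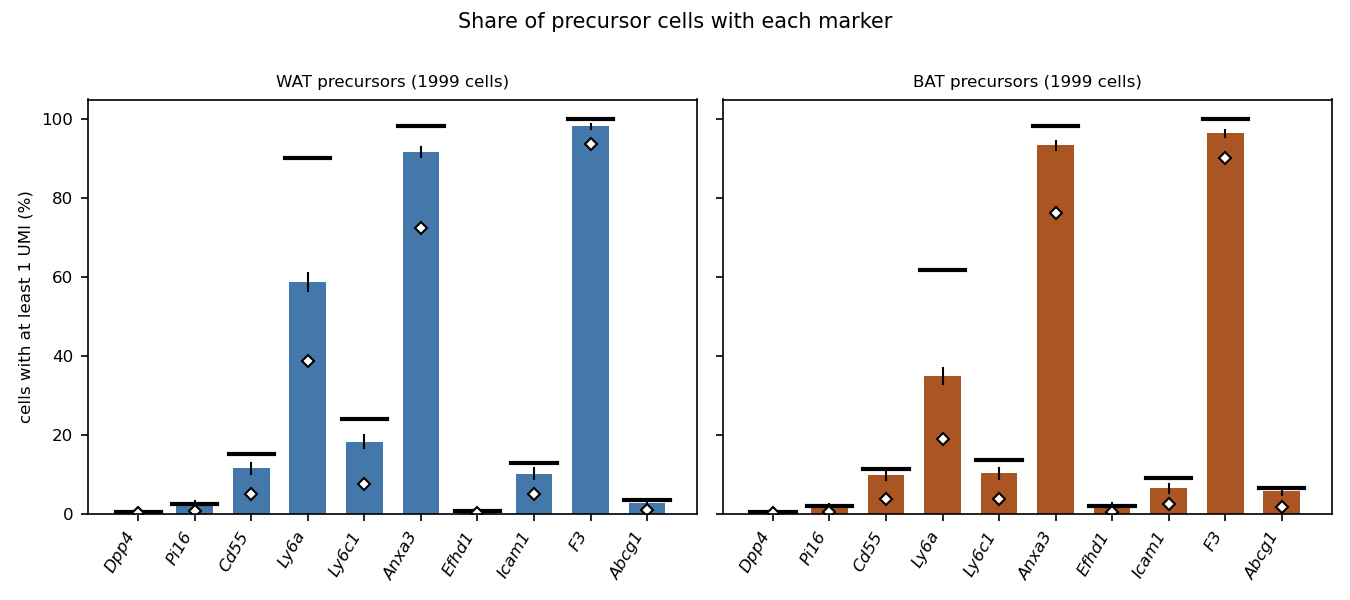
Share of the labelled precursor cells of each depot with at least 1 UMI of each marker. Bars are shares with 95% Clopper-Pearson intervals, black lines the share expected if the gene's UMIs were spread over cells by depth alone, and diamonds the share after thinning to 10000 UMIs per cell; the gap between bar and line is widest for Ly6a, 31.4 percentage points in WAT and 26.8 in BAT.

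The adult classes are defined by markers found together, so combinations were counted cell by cell. No labelled precursor cell of either depot held Dpp4 and Pi16 together, which allows a share of up to 0.150%, and in all captured cells the combination was found in 0 of 5261 WAT and 1 of 7009 BAT cells. With genes this rare, 0.174 WAT and 0.207 BAT labelled cells were expected if the 2 were independent within cluster and depth group, and 0.310 and 0.248 within depth group alone. Cells with F3 but without Icam1, Dpp4 or Pi16 made up 85.5% of WAT and 88.0% of BAT precursors, and Anxa3 and F3 were found together in 90.0% and 90.1%. Only 2.85% of WAT and 5.70% of BAT cells held the regulatory pair F3 and Abcg1. Of the 204 WAT cells with Icam1, 201 held F3, and of the 131 BAT cells 125 did. Counting the 7 interstitial markers per cell, WAT cells most often held 2 of them (44.8%) and BAT cells 1 (51.7%). No labelled precursor cell held 6 or 7, and 7 WAT cells and 1 BAT cell held 5, while among all captured cells 2 of WAT held 6.

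For each pair of members the number of cells with both was set against the number expected if they were independent within cluster and within 5 equal groups by depth. At least 5 cells were expected for 33 pairs in WAT and 30 in BAT, and the interval of the ratio lay above 1 for 1 pair in WAT and 4 in BAT, and below 1 for none. Pairs with F3 or Anxa3, which were in most cells, had little room above 1, and Anxa3 with F3 had little room either way. Ly6a and Ly6c1 met in both depots: 283 WAT cells held both against 227.0 expected (1.25 times, 1.11 to 1.40), and 134 BAT cells against 88.0 (1.52 times, 1.28 to 1.80). With every cell thinned to 10000 UMIs the excess was 1.65 times (1.35 to 2.00) in WAT and 1.92 times (1.31 to 2.71) in BAT. Ly6a and Ly6c1 share bases at their 3′ ends, as given above, and the part of these in the excess was not tested. In BAT the other pairs were Cd55 with Ly6c1 (35 cells, 1.54 times, 1.07 to 2.14), Cd55 with Icam1 (25 cells, 1.67 times, 1.08 to 2.46) and Ly6a with Icam1 (65 cells, 1.33 times, 1.03 to 1.7), and the upstream sequences printed above belong to 3 of these genes. After thinning, none of these other BAT pairs had an interval above 1, and with carried-over names 6 BAT pairs had one. With 63 pairs read, some intervals may lie off 1 by chance, and the intervals leave out the error of the expected number. F3 with Abcg1 was met 57 times against 55.9 expected in WAT and 114 against 112.7 in BAT. Icam1 with F3 was met 201 times against 201.1 in WAT and 125 against 126.8 in BAT. Nearly all precursor cells held F3, so these counts had almost no room above the expected number. They therefore cannot show whether F3 goes together with Abcg1 or Icam1.

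**Figure D4:**
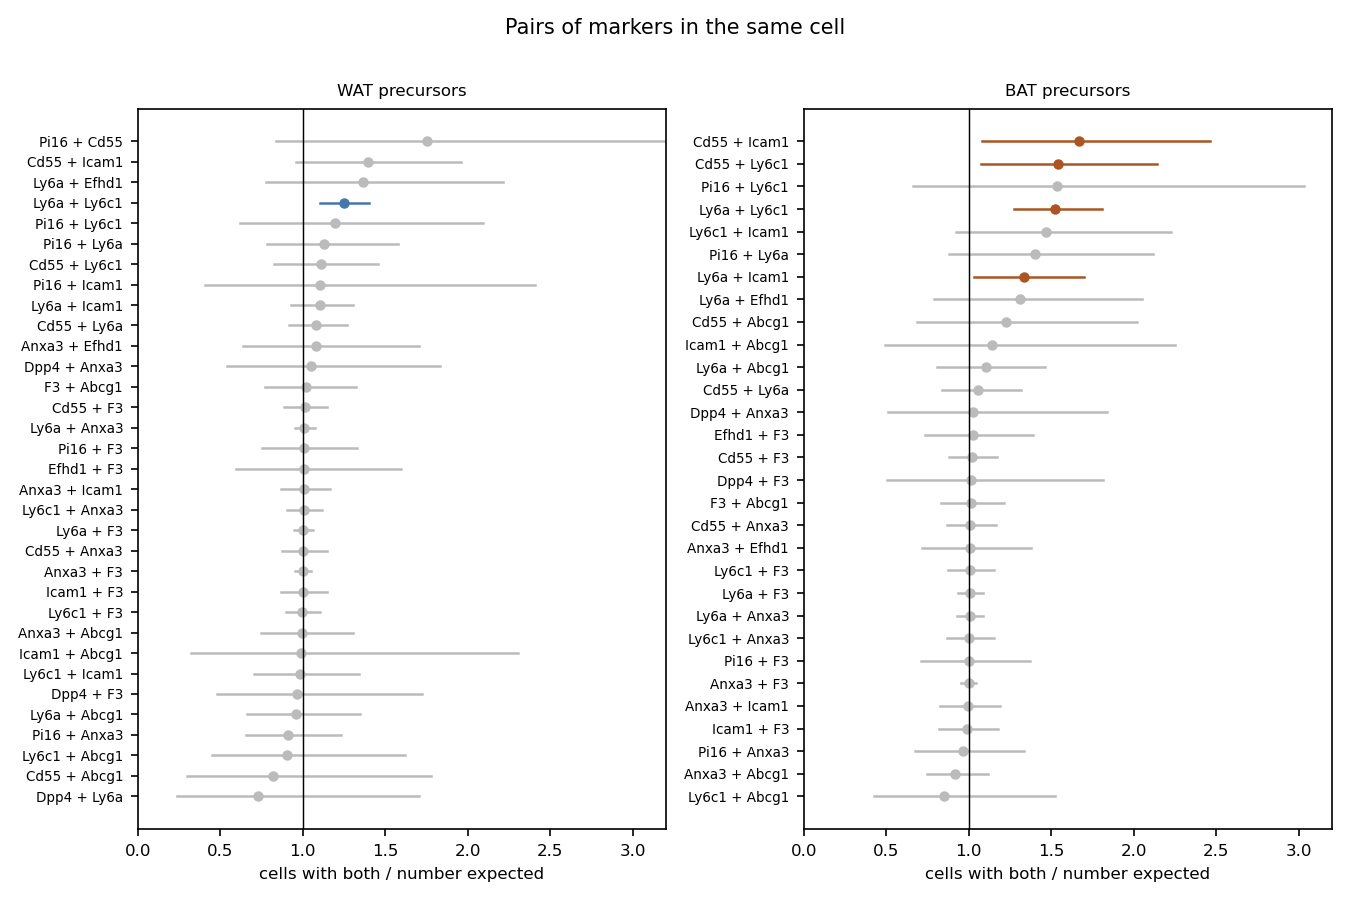
Number of cells with both markers over the number expected within cluster and depth group, for the pairs with at least 5 cells expected (33 in WAT, 30 in BAT), with 95% Poisson intervals (that of Pi16 with Cd55 in WAT runs past the axis). Coloured points have intervals above 1: Ly6a with Ly6c1 in WAT, and this pair and 3 others in BAT.

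Cells holding a rare marker were then compared with the other precursors for the rest of the transcriptome, a comparison chosen after the levels were known and made with carried-over names. The 44 WAT cells with Dpp4 differed from the others at least 2-fold for 12 of 3817 genes at 50 CPM (0.314%) and the 53 BAT cells for 2 of 3612 (0.0554%). For Pi16 these were 3 of 3782 (0.0793%, 107 cells) and 2 of 3514 (0.0569%, 128 cells). For Ly6c1 it was 1 gene in each depot (0.0273% and 0.0286%), and for Icam1 0 in WAT and 4 in BAT (0.112%). No gene of the further interstitial or committed lists was among them in either depot, and of the regulatory list only Rspo2, a secreted activator of Wnt signalling, with 102 CPM in BAT cells with Dpp4 and 36.9 CPM in the others. The interstitial list had its largest medians in cells with Pi16 in WAT (0.27 on the log2 scale, against 0.00 for all genes) and Ly6c1 in BAT (0.23, against -0.01). In the same WAT cells with Pi16 the regulatory list stood at 0.26 and the committed list at 0.13. The committed list had its largest medians in cells with Icam1, at 0.15 in WAT and 0.26 in BAT, against -0.01 for all genes in both. In these cells the regulatory list stood at 0.24 in WAT, above the committed list, and -0.05 in BAT. The interstitial list there stood at 0.09 and 0.17. BAT cells with Ly6c1 were deeper, at a median of 31032 UMIs against 25968.5 in the others. Pi16 and Ly6c1 were also higher in FAPLs than in CAPs, and the part of cluster and depth in the list medians was not tested.

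The markers were also read in the labelled cells that are not precursors, which are few. F3 was lower there than in precursors, with 46.4 CPM (27.5 to 73.4) in WAT myeloid and 119 CPM (79.9 to 171) in BAT myoblasts as the highest in each depot. Efhd1 and Abcg1, rare in precursors, were higher in 1 kind of cell each, Efhd1 in glial and Abcg1 in myeloid cells of both depots.

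**Figure D5:**
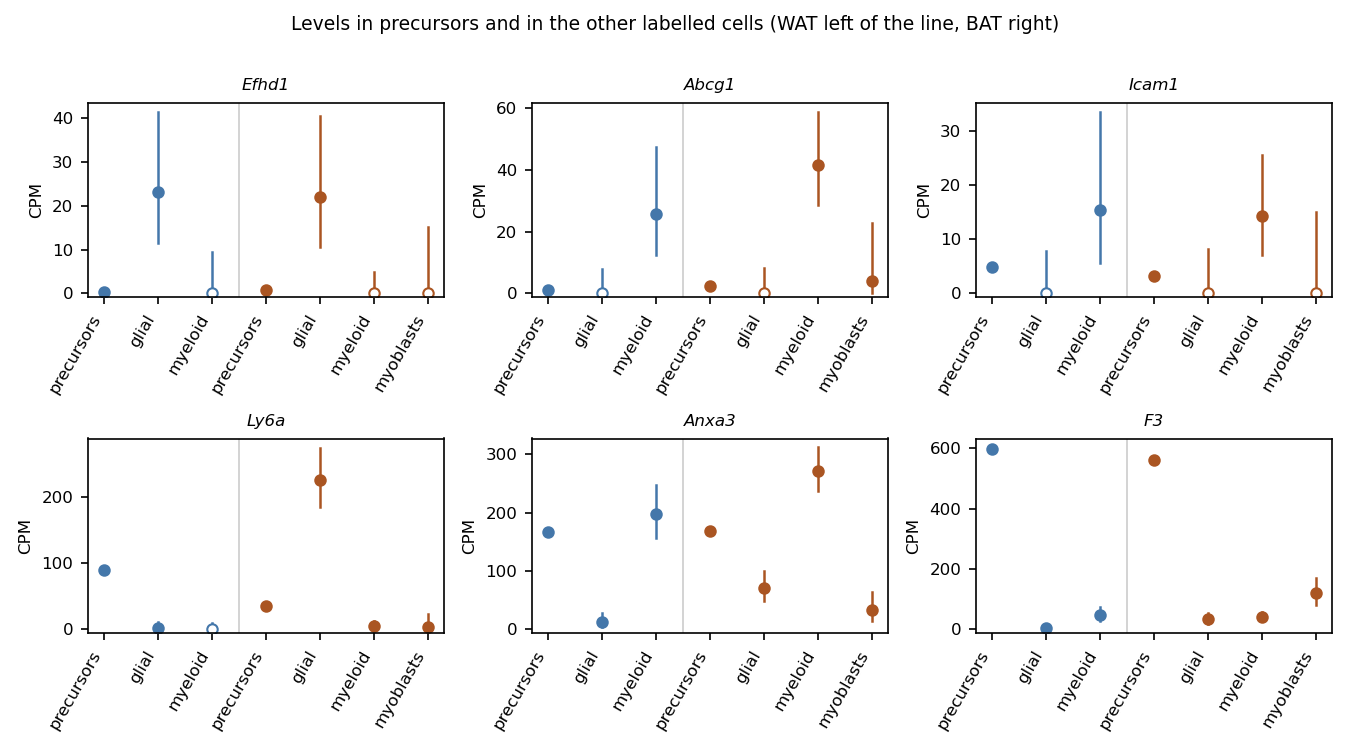
Level (CPM, linear axis) of 6 markers in precursors and in the labelled glial, myeloid and myoblast cells, WAT in blue left of the line and BAT in orange right of it. Points are levels from summed UMIs with 95% Poisson intervals and open points are cells without a UMI; Efhd1 is higher in glial and Abcg1 and Icam1 in myeloid cells than in precursors, and F3 is higher in precursors.

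The genes most like each member across the 14 clusters, by Pearson's r of log2(CPM + 1) over 8115 genes, were for Ly6a Trappc13 (0.89), Vat1 (0.88) and Gdf10 (0.88), and for Ly6c1 Gdf10 (0.89), Mcub (0.86) and Gclm (0.86). Gdf10 is a BMP-family ligand of the regulatory list. For F3 they were Vcam1 (0.90), a marker of the committed list, Tlcd2 (0.89) and Fbln2 (0.88), and for Icam1 Ggcx (0.85), Igfbp3 (0.84) and Lrba (0.81). Anxa3 was most like Pgam5 (0.95), Gm48529 (0.95) and Fabp5 (0.94), Cd55 most like Naaladl2 (0.88), Samd1 (0.87) and Top3b (0.87), and Abcg1 most like Ank (0.93), Enc1 (0.90) and Col15a1 (0.90), the last again of the committed list. Clusters of a depot share a library, so these values describe a likeness only.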

How the data were processed

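Single-cell RNA sequencing of 1 WAT and 1 BAT library of cultured mouse progenitors was used. The authors deposited whole-number counts of UMIs per gene and cell, which they made with Cell Ranger 7.0.1 on GRCm38 with its own cell calls and without normalization. The cluster names of labelled cells came from a shortened copy of the study's source data, so only part of the named cells could be used. The other cells were used as an alternative only.

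Cells with 3900 to 7700 genes (genes found in at least 3 cells), 1.7 to 5% mitochondrial UMIs and 6000 to 60000 UMIs were kept, 4407 of 5261 WAT and 6137 of 7009 BAT cells. Names were carried over to them by vote of 15 nearest labelled neighbours in 10 principal components of 2000 variable genes. Labelled cells held out got their own name back in 88.1% of WAT and 83.9% of BAT cells. No doublet caller was run, and no step against doublets is stated in the sources used here.

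Counts were summed per cluster and divided by all UMIs of its cells. With 1 library per depot no test was made, and a gene was counted as different at 2-fold with at least 10 CPM in either group. At 0 counts the limit was 3 counts. Thinning to 10000 UMIs used a fixed seed and left out no labelled cell. Python 3.11.15, numpy 2.4.6, scipy 1.17.1, pandas 2.3.3, scikit-learn 1.9.0 and matplotlib 3.10.9 were used, and the procedures were tested on simulated data.

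The 10 members, the wider lists and the comparisons were chosen with earlier results of these data known. Genes named beyond the members are up to 4 per wider list and depot with the largest ratio of FAPLs over CAPs at 10 CPM or more, and the 3 most alike across clusters for members with at least 100 UMIs among genes with at least 20 CPM in 1 cluster. Markers of cell types and possible gene copies were read as lists. Alternatives were carried-over names, all captured cells, no wAPC 3 and bAPC 3, means of per-cell values, centring on the median of all genes, thinned cells, other strata for pairs and other minimum levels.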

Additional observations from a re-analysis of the deposited data

Results flagged for a closer look

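There were 9 levels outside the precursors that stood out, each in a labelled glial or myeloid cluster whose counting interval lay above the level of the same gene in the precursors of its library. They rest on 14 to 27 cells of 1 library each. Efhd1 reached 23.2 CPM (11.6 to 41.6; 7 of 20 cells) in WAT glial cells against 0.33 CPM in WAT precursors, and 22.1 CPM (10.6 to 40.6; 9 of 22 cells) in BAT glial cells against 0.76 CPM. Abcg1 reached 25.8 CPM (12.4 to 47.4; 6 of 14 cells) in WAT and 41.7 CPM (28.5 to 58.9; 16 of 27 cells) in BAT myeloid cells, against 1.26 and 2.42 CPM. Icam1 reached 15.5 CPM (5.68 to 33.7; 6 of 14 cells) and 14.3 CPM (7.16 to 25.7; 9 of 27 cells) in the same cells, against 4.86 and 3.32 CPM. Anxa3 reached 272 CPM (237 to 312; 27 of 27 cells) in BAT myeloid cells against 169 CPM.

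Ly6a reached 225 CPM (184 to 274) in BAT glial cells against 34.9 CPM in BAT precursors, but its 102 UMIs lay in 5 of 22 cells, of which 1 held 49 and another 39. Neither of these 2 cells held a UMI of Pdgfra, Dcn or F3, and they held 4 UMIs of Sox10 each, so they carried a glial marker and no UMI of these precursor genes. Pdgfra was in 0 of the 22 BAT glial cells, while Col1a1, another precursor marker, was in 22 of 22. The source of the Ly6a UMIs was not tested. Ly6c1 reached 19.9 CPM (9.09 to 37.7; 5 of 22 cells) in the same glial cells against 5.19 CPM. In WAT glial cells Ly6a had 1 UMI in 20 cells.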

How the results depend on the processing

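No paired analysis was possible because each depot has 1 library. The number of genes past 2-fold moved with the minimum level: without one it was 5430 for WAT over BAT, 5975 for wFAPLs over wCAPs and 5246 for bFAPLs over bCAPs, and at 50 CPM it was 50, 124 and 119, against 165, 354 and 354. With carried-over names the members at 10 CPM and 2-fold between wFAPLs and wCAPs were 0 in place of 1. Pairs of members with intervals above 1 were 4 in WAT with carried-over names and 2 with thinned cells, in place of 1, and 6 in BAT with carried-over names and 1 with thinned cells, in place of 4. The ratio of Anxa3 between the depots, whose interval held 0, went from -0.02 to 0.01 without wAPC 3 and bAPC 3, and no other ratio of a member with UMIs in both groups changed its sign under the alternatives run. Dpp4, with no UMI in labelled wFAPLs and 3 in wCAPs, had 3 and 7 with carried-over names, at a log2 ratio of 0.36 (-2.22 to 2.5). The cause of these moves was not tested, other than that a minimum level sets how many genes are tested. Of 28 ratios, 26 stayed within their counting interval with carried-over names and 27 as means of per-cell values, and of 140 levels 127 and 137 did. Centring on the median of all genes (0.04 on the log2 scale) moved 2 of 10 ratios of WAT over BAT, Anxa3 to -0.06 and F3 to 0.04. The interval of Anxa3 then lay below 0, as it did with carried-over names (-0.05) and all captured cells (-0.03). Depth sets what can be said of Dpp4, Pi16, Efhd1 and Abcg1, each with at most 140 UMIs per depot in labelled precursors, and 35 of 40 shares of cells fell outside their interval after thinning, all of them lower.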

Other observations

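The wider lists also differed between the depots. Of 9 further regulatory genes, 6 reached 10 CPM in WAT or BAT precursors, and Gdf10 (38.0 against 7.46 CPM) and Epha3 (206 against 57.6 CPM) were at least 2-fold higher in WAT, while Rspo2 (21.9 against 49.8 CPM) and Mgp (98.6 against 217 CPM) were at least 2-fold lower. Of 12 further interstitial genes at that level, Opcml was higher in WAT (79.6 against 25.6 CPM) and Pcolce2 lower (8.54 against 17.6 CPM). None of 8 committed genes at that level differed 2-fold. Of all genes tested, 1.07% were at least 2-fold higher in WAT and 0.752% lower. These genes were singled out after their values were seen.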
